A study of Mus musculus with 12 samples.

Results

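The 34 genes described here encode the part of the cardiac extracellular matrix that is not collagen, together with the enzymes and chaperones that fold, modify, crosslink and degrade collagen and the TGF-beta ligands that drive matrix production. They were chosen by gene symbol, and 32 of the 34 had a named probe set among the 19505 named genes of the array. Loxl2 and Fbn1 were not analysed here. Each of the 32 genes had 1 probe set. On the mean over all arrays 26 of them were above the background, defined as the 95th percentile of 246 reporter control probe sets, which was 4.96 on the log2 scale.

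Collagen chains are hydroxylated and folded in the endoplasmic reticulum with the help of dedicated enzymes and a chaperone, trimmed outside the cell, and then crosslinked by lysyl oxidases into fibres. Glycoproteins, proteoglycans, elastic fibres and basement membranes organise those fibres around the cells, and metalloproteinases and their tissue inhibitors (TIMPs) set how fast matrix is removed. In the heart most of these proteins are made by fibroblasts, and TGF-beta is the best known inducer of their genes in fibrosis.

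Myocardium came from 12 mice, 4 in each of 3 groups, with 1 array per mouse. NC mice, the non-diabetic controls, got intraperitoneal vehicle for 5 days. DM mice got intraperitoneal streptozotocin, which destroys pancreatic beta cells, for 5 days and were kept if fasting glucose 2 weeks afterwards reached 16.7 mM or more. DM_AngIV mice had the same streptozotocin course and glucose limit, and in addition received a high dose of angiotensin IV (a peptide derived from angiotensin II) by infusion, 2.88 mg/kg/day between week 8 and week 24. Myocardium was labelled as taken at 6 months in every group, and no mouse strain is given in the sources used here. None of the 3 groups received angiotensin IV without streptozotocin, so DM_AngIV against NC compares diabetes and peptide together with neither. The study asked whether angiotensin IV acts on fibrosis, among other features of diabetic heart disease. Values are log2 expression values, and a difference of 1 on that scale is a doubling of the signal.

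The tissue carried the markers of heart muscle, with a mean of 12 cardiomyocyte markers between 11.09 and 11.27 on every array. Atrial muscle transcripts differed between arrays. The regulatory light chain of atrial myosin, Myl7, was at 10.08 and 7.90 in NC replicates 1 and 3 and at 8.86, 9.68 and 8.10 in DM replicates 1, 2 and 4. On the other 7 arrays, all 4 DM_AngIV arrays among them, it was between 3.53 and 4.28 and below background. The mean of 7 atrial markers ranged from 5.23 to 8.13 in NC, from 4.85 to 7.69 in DM and from 5.12 to 5.42 in DM_AngIV. Among the 7, Bmp10 was below background on every array. Myl4 and Sln separated the same arrays as Myl7, at 7.88 and 7.28 or higher against at most 6.02 and 5.34. Nppa, Dkk3 and Kcnj3 did not. Nppa was highest in DM replicate 2, at 10.51, but at 9.65 in DM_AngIV replicate 4 and 8.79 in NC replicate 3. Dkk3 was at 5.06 in DM_AngIV replicate 3 and 4.58 in DM replicate 4. Kcnj3 was highest in NC replicate 2, at 7.53. The atrial signal below refers to Myl7 above background. The atrial term or covariate used below is instead the mean of all 7 markers, with Bmp10, Nppa, Dkk3 and Kcnj3 included. That mean varied little within DM_AngIV, so the fitted slope rests mostly on the NC and DM arrays. The mean of the 32 matrix genes was 6.63 and 6.40 in NC replicates 1 and 3 and 6.59 and 6.39 in DM replicates 1 and 2, and between 6.03 and 6.30 on the other 8 arrays, with DM replicate 4 at 6.18. The 4 arrays with the highest matrix mean therefore all carried the atrial signal. Without the 5 arrays with that signal, 2 NC arrays, 1 DM array and 4 DM_AngIV arrays were left. For the 32 matrix genes, calls and turns of direction are given for both sets of arrays, here or in the closing section. Of the pathway genes outside the 32, only Col3a1 and Tgfbr3 are given for both sets, and the others over all 12 arrays only.

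Of the 32 genes, 2 changed past the threshold (limma, p adjusted by Benjamini-Hochberg over all 19505 genes, below 0.05), both in DM_AngIV against NC. Timp3 rose and Serpinh1 fell. In DM against NC 0 of the 32 passed, and in DM_AngIV against DM 0 passed. Of all genes 1.02% passed in DM_AngIV against NC, 0.0154% in DM against NC and 0% in DM_AngIV against DM. Timp3 encodes a matrix-bound inhibitor of metalloproteinases, and Serpinh1 encodes HSP47, the collagen-specific chaperone of the endoplasmic reticulum. In both genes the DM mean lay between the NC and the DM_AngIV mean.

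**Figure D1:**
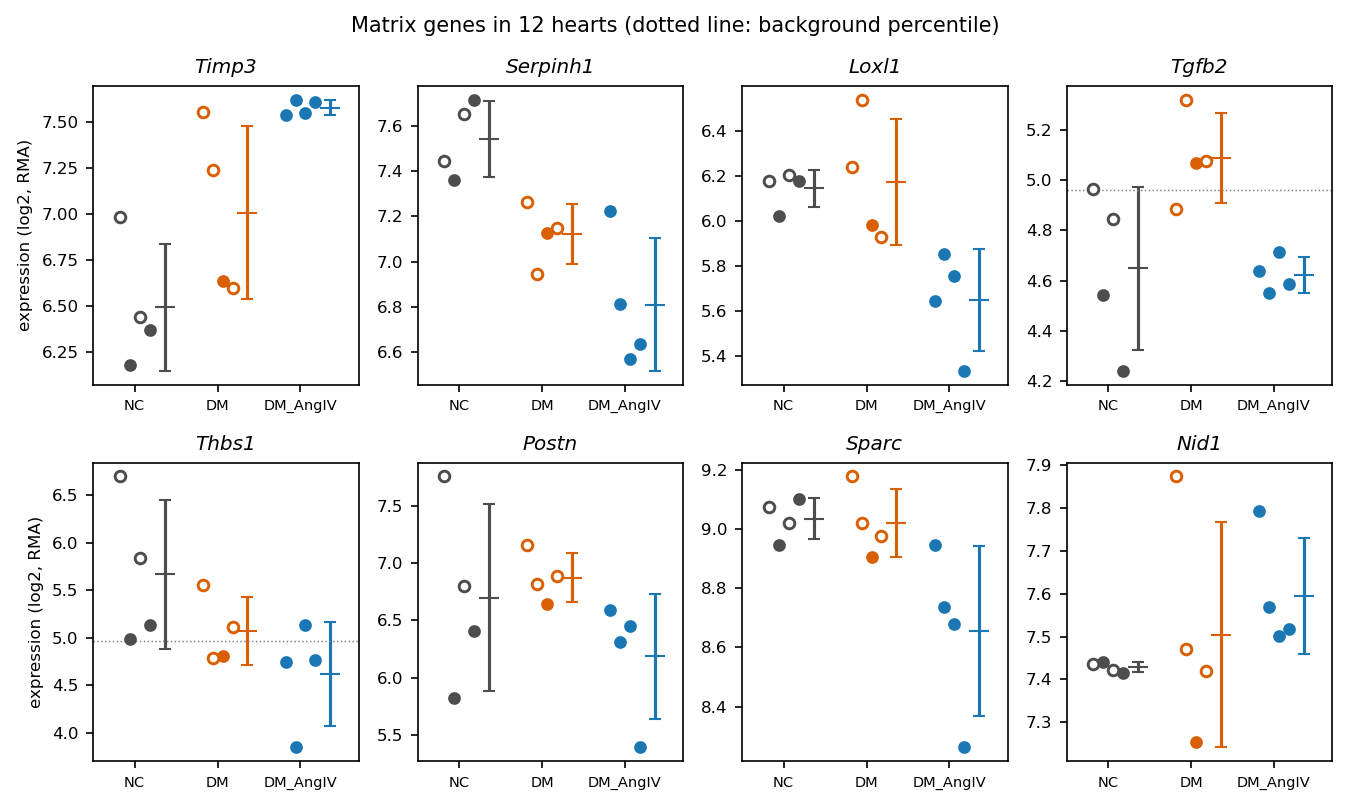
Expression of 8 matrix genes (log2, y axis) in NC, DM and DM_AngIV hearts, with 1 point per array and the mean with its SD (n = 4) beside the points. Open points are the 5 arrays with Myl7 above background. The 4 DM_AngIV values of Timp3 lie between 7.54 and 7.62, above all NC values, and those of Serpinh1 lie below all NC values.

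Timp3 was at 6.98, 6.18, 6.44 and 6.37 in NC replicates 1 to 4. It was at 7.56, 7.24, 6.64 and 6.60 in DM replicates 1 to 4. In DM_AngIV the values were 7.54, 7.62, 7.55 and 7.61. The DM_AngIV arrays thus lay close together and above every NC array, while the DM arrays fell into a higher pair that reached up to the DM_AngIV level and a lower pair within the NC range. Both arrays of the higher pair carried the atrial signal, as did DM replicate 4 of the lower pair. In DM_AngIV against NC Timp3 rose 2.12-fold, by 1.09 ± 0.20 on the log2 scale (SE), from 6.49 ± 0.35 to 7.58 ± 0.04 (SD, n = 4; limma adjusted p = 0.0189). The difference was 0.52 ± 0.20 in DM against NC (limma adjusted p = 0.461) and 0.57 ± 0.20 in DM_AngIV against DM (limma adjusted p = 0.617), and neither passed. On the 7 arrays without atrial signal the difference from NC was 1.30 (limma adjusted p = 0.00695), and with an atrial marker term in the model it was 1.37 (limma adjusted p = 0.00179). The call was lost without NC replicate 2 or 4 or DM_AngIV replicate 2, 3 or 4, where the difference was at least 0.98 and the limma adjusted p at most 0.0670. On the 7 arrays, with 1 DM array left, Timp3 had 0.36 in DM against NC and 0.94 in DM_AngIV against DM. With the atrial term these were 0.47 and 0.90. Timp3 lies within the synapsin gene Syn3 in the RefSeq annotation, and Syn3 was below background on every array, between 2.91 and 4.04.

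Serpinh1 was at 7.44, 7.36, 7.65 and 7.72 in NC replicates 1 to 4. In DM it was at 7.26, 6.94, 7.13 and 7.15. In DM_AngIV it was at 7.22, 6.81, 6.57 and 6.63. Every DM and every DM_AngIV array was below every NC array, and DM_AngIV replicate 1 lay among the DM arrays while the other 3 were below them. Serpinh1 fell 1.66-fold in DM_AngIV against NC, a difference of -0.73 ± 0.14 (SE), from 7.54 ± 0.17 to 6.81 ± 0.29 (SD, n = 4; limma adjusted p = 0.0225). It had -0.42 ± 0.14 in DM against NC (limma adjusted p = 0.374) and -0.31 ± 0.14 in DM_AngIV against DM (limma adjusted p = 0.660), and neither passed. On those 7 arrays the difference from NC was -0.73, the same size, but with 2 NC arrays left it was not called (limma adjusted p = 0.182). The call was also lost without NC replicate 3 or 4 or DM_AngIV replicate 2, 3 or 4, with differences between -0.65 and -0.73 and a limma adjusted p of at most 0.0813.

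The promoters of these 2 genes are shown because they are the members that changed. They span 250 bases before and 50 bases after the annotated start in RefSeq (GRCm38.p6), as chr10:86300162-86300461 on the plus strand for Timp3 and chr7:99353190-99353489 on the minus strand for Serpinh1. Of the 32 genes, 21 had an entry in that promoter table. Capitals mark the GC box (GGGCGG, the core letters bound by SP1) on either strand.
Timp3: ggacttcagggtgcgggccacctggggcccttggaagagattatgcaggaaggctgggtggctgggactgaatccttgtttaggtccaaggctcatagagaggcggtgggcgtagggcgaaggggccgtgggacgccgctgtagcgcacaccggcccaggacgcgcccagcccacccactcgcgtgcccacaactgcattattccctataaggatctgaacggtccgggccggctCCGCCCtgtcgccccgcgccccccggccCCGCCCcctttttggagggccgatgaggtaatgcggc
Serpinh1: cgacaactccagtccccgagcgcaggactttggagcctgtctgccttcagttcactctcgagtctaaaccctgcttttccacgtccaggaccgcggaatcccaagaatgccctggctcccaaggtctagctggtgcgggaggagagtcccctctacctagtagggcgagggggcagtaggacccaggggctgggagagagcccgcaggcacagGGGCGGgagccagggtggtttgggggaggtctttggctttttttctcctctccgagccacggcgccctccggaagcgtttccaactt
Timp3 held 2 GC boxes, on the minus strand, the first starting 15 bases before the annotated start and the second after it, and Serpinh1 held 1, starting 37 bases before its start. Of all 32851 promoters of this length, 35.7% held a GC box. The sequences were also searched on both strands for the TATA box (TATAAA, in 13.6% of all promoters), the CCAAT box (CCAAT, 37.4%), the paired heat shock element core (GAANNTTC, 7.86%), the palindromic SMAD element (GTCTAGAC, 0.213%) and the E-box of clock factors (CACGTG, 7.15%). None of those 5 sets of letters was found in either window, and no marked match overlaps another. Their absence from 300 bases says nothing on whether these factors act on the genes.

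In DM_AngIV against NC, 198 genes or 1.02% of all genes passed, and 2 of the 32 matrix genes did. Upwards the count was 1 of 32 where 0.728% of all genes rose, and downwards 1 of 32 where 0.287% of all genes fell. In all 6 of the 32 had an unadjusted p below 0.05 against 14.6% of all genes. The groups did not overlap for 4 of the 32, Timp3, Nid1, Serpinh1 and Loxl1, against 9.83% of all genes. The non-overlapping genes were 2 of 32 upwards, where 5.63% of all genes did so, and 2 of 32 downwards, where 4.20% did. There were 12 positive differences among the 32, where 48.5% of all genes had one, with a median of -0.06 beside -0.01 for all genes. On the 7 arrays without atrial signal 21 were positive and the median was 0.08.

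In DM against NC, 3 genes or 0.0154% of all genes passed. By limma 0 of the 32 matrix genes passed, and 4 had an unadjusted p below 0.05 where 8.95% of all genes did. The 4 were Tgfb2, Serpinh1, Timp3 and the prolyl hydroxylase subunit P4ha2. Serpinh1 was the 1 matrix gene whose groups did not overlap, against 4.54% of all genes. Downwards that is 1 of 32 beside 2.09% of all genes, and upwards 0 of 32 beside 2.45%. There were 18 positive differences among the 32, beside 49.8% of all genes, the median was 0.02 beside -0.00 for all genes, and 26 of the 32 were smaller than 0.3 in size. On the 7 arrays without atrial signal, with 1 DM array left, 15 were positive and the median was -0.03. With the atrial covariate the median was -0.009. The median half-width of the 95% confidence intervals was 0.32, so differences below that size were mostly not resolved with 4 mice a group.

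In DM_AngIV against DM, 0 genes or 0% of all genes passed. By limma 0 of the 32 matrix genes passed, and 6 had an unadjusted p below 0.05 against 7.48% of all genes. The groups did not overlap for Loxl1, Tgfb2 and Postn, all lower in DM_AngIV, so for 3 of 32 against 5.01% of all genes in either direction and 2.20% downwards, and 0 of 32 were higher without overlap beside 2.81%. There were 11 positive differences among the 32, beside 49.8% of all genes, with a median of -0.06 beside -0.00 for all genes. The median turned to 0.10 without the arrays with atrial signal (1 DM array is then left) and to 0.08 with the atrial covariate, so the sign of this median differed between the settings. These comparisons share arrays, so their values for a gene are not independent of each other.

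**Figure D2:**
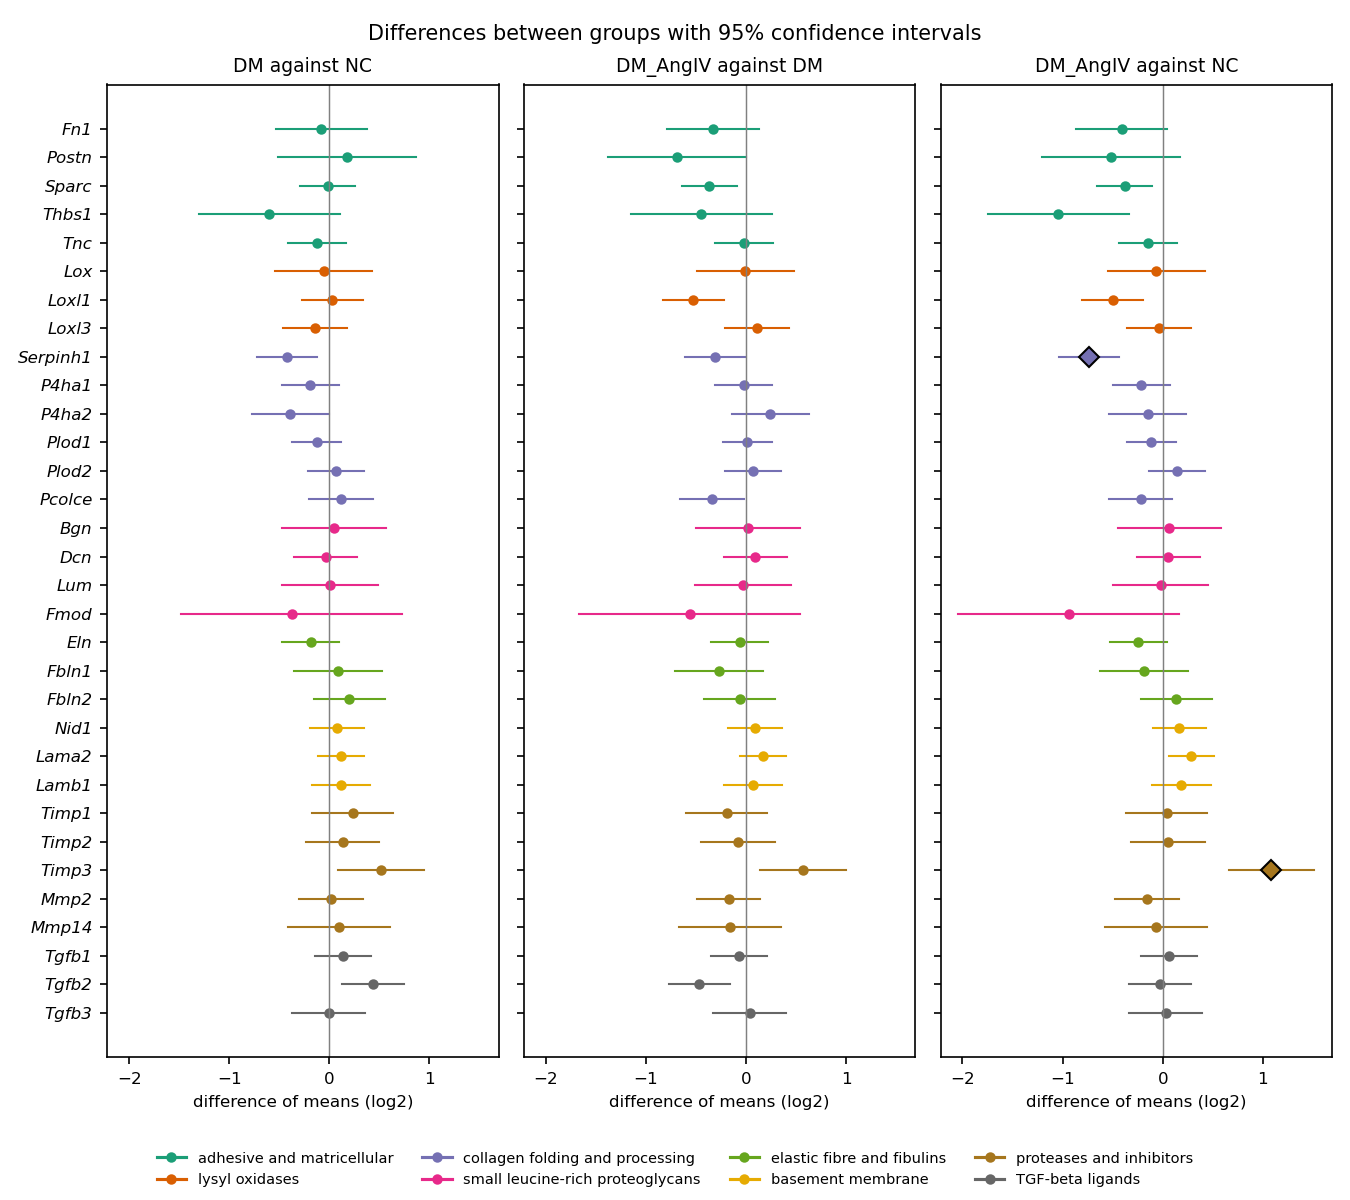
Difference of group means (log2, x axis) with its 95% confidence interval for the 32 matrix genes (y axis) in each of the 3 comparisons, coloured by role. Diamonds with a black edge mark the 2 genes past the threshold, Serpinh1 at -0.73 and Timp3 at 1.09, both in DM_AngIV against NC.

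Over all arrays the 5 adhesive and matricellular genes had negative differences in DM_AngIV against NC and against DM, but this direction did not hold for each of them without the atrial signal. On the 7 arrays Postn was 0.07 against NC and Tnc, below background throughout, was 0.0022 against NC and 0.15 against DM, and with the atrial term Thbs1 was 0.039 and Tnc 0.15 against DM. By limma 0 of the 5 passed in any comparison (those with an unadjusted p below 0.05 numbered 0 in DM against NC, 1 in DM_AngIV against DM and 2 in DM_AngIV against NC). The shares of all genes with such a p were 8.95%, 7.48% and 14.6%. Thbs1 encodes thrombospondin 1, which can release TGF-beta from its latent complex. It was at 6.70, 4.99, 5.83 and 5.13 in NC, at 5.56, 4.79, 4.81 and 5.11 in DM and at 4.74, 3.85, 5.14 and 4.76 in DM_AngIV. NC replicates 1 and 3 stood above all other arrays and the groups overlapped. Thbs1 was above background on all 4 NC arrays, 2 of 4 DM arrays and 1 of 4 DM_AngIV arrays, so the size of its differences is uncertain. The difference in DM_AngIV against NC was -1.04 ± 0.33 (SE; limma adjusted p = 0.146), and it was -0.44 without the arrays with atrial signal. The Thbs1 difference was -0.60 ± 0.33 in DM against NC (limma adjusted p = 0.635).

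Postn encodes periostin, a matrix protein of activated fibroblasts. It was at 7.76, 5.82, 6.80 and 6.41 in NC, at 7.16, 6.81, 6.64 and 6.89 in DM and at 6.59, 6.31, 6.45 and 5.39 in DM_AngIV. All DM_AngIV arrays were below all DM arrays, the nearest by 6.59 against 6.64, while the NC arrays spanned both groups. Its difference in DM_AngIV against DM was -0.69 ± 0.33 (SE; limma adjusted p = 0.666). It was -0.46 on the 7 arrays, with 1 DM array left, and -0.24 with the atrial term. Against NC it was -0.51 over all arrays and -0.13 with the atrial term. On the 7 arrays it was 0.07 against NC, so its direction there turned.

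Sparc encodes osteonectin, which binds collagen and takes part in its assembly outside the cell. It was at 9.07, 8.94, 9.02 and 9.10 in NC and at 9.18, 9.02, 8.90 and 8.98 in DM. In DM_AngIV it was at 8.95, 8.74, 8.68 and 8.26, with replicate 1 inside the range of the other groups and the other 3 below it. The difference was -0.36 ± 0.13 in DM_AngIV against DM (SE; limma adjusted p = 0.617) and -0.38 ± 0.13 against NC (limma adjusted p = 0.180). On the 7 arrays these were -0.25 and -0.37. Fibronectin, Fn1, had -0.33 and -0.41 in the same comparisons, and -0.09 and -0.04 without those arrays. Tenascin C, Tnc, was below background on every array.

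Lysyl oxidases oxidise lysines of collagen and elastin for crosslinking, and Loxl1 acts mainly on elastic fibres. By limma 0 of the 3 measured members passed (Loxl1 had an unadjusted p below 0.05 in both DM_AngIV comparisons). Loxl1 was at 6.18, 6.02, 6.20 and 6.18 in NC and at 6.24, 6.54, 5.98 and 5.93 in DM. In DM_AngIV it was at 5.64, 5.86, 5.76 and 5.33, below all 8 arrays of the other groups. The difference was -0.53 ± 0.14 in DM_AngIV against DM (SE; limma adjusted p = 0.511) and -0.50 ± 0.14 against NC (limma adjusted p = 0.112). Loxl1 passed against NC when genes below background were left out (limma adjusted p = 0.0416) and with a variance prior that follows the mean level and is robust to outlying genes (limma adjusted p = 0.0475). Over the 7 arrays the differences were -0.34 and -0.45. Loxl3 was at 5.42, 4.90, 5.14 and 5.18 in NC, at 5.37, 5.04, 4.91 and 4.75 in DM and at 4.88, 5.36, 5.17 and 5.09 in DM_AngIV. The 3 groups of Loxl3 overlapped widely, and its differences lay between -0.14 and 0.11. Lox itself was below background on every array.

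Besides Serpinh1, the genes of collagen folding and processing include the prolyl 4-hydroxylase catalytic subunits P4ha1 and P4ha2, which had -0.19 and -0.39 in DM against NC, and -0.21 and -0.15 in DM_AngIV against NC. The lysyl hydroxylases Plod1 and Plod2 had differences between -0.13 and 0.14 in the 3 comparisons. Pcolce encodes the enhancer of procollagen C-proteinase. It was at 6.36, 6.06, 6.35 and 6.42 in NC, at 6.72, 6.36, 6.32 and 6.25 in DM and at 6.41, 6.12, 6.07 and 5.70 in DM_AngIV. DM replicate 1 was its highest array and DM_AngIV replicate 4 its lowest, and the groups overlapped. Its difference in DM_AngIV against DM was -0.34 ± 0.15 (SE; limma adjusted p = 0.652). Over this group 1 of 6 passed in DM_AngIV against NC, Serpinh1, and 0 of 6 in the other comparisons, where 2 of 6 had an unadjusted p below 0.05 in each. Such a p was found for 8.95% of all genes in DM against NC and 7.48% in DM_AngIV against DM.

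The small leucine-rich proteoglycans bind collagen fibrils and set their diameter. Decorin, Dcn, had means of 10.96, 10.92 and 11.02 in NC, DM and DM_AngIV, and biglycan, Bgn, had 7.69, 7.73 and 7.75. Lumican, Lum, had 7.39, 7.40 and 7.37. The interval of the Dcn difference in DM_AngIV against NC ran from -0.26 to 0.37, and those of Bgn and Lum were wider, from -0.45 to 0.59 and from -0.50 to 0.46. Fibromodulin, Fmod, was the most variable of the 32 genes. It was at 5.83, 3.72, 4.77 and 3.01 in NC, at 4.63, 4.21, 2.97 and 4.02 in DM and at 3.81, 3.16, 4.21 and 2.38 in DM_AngIV. NC replicate 1 was the only array on which Fmod exceeded background, so its differences carry no fold here. None of the 4 proteoglycans passed by limma, and 0 had an unadjusted p below 0.05 in any comparison.

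Among the elastic fibre genes, Eln encodes elastin itself. It was at 6.61, 6.45, 6.04 and 5.93 in NC, at 6.05, 6.09, 6.01 and 6.14 in DM and at 6.02, 6.05, 5.99 and 6.00 in DM_AngIV. The NC arrays split into a higher and a lower pair, and the 8 diabetic arrays lay at or near the lower pair. The Eln difference in DM_AngIV against NC was -0.24 ± 0.13 (SE; limma adjusted p = 0.430). Fbln1, a fibulin of the matrix around fibroblasts, was at 6.80, 6.87, 6.37 and 6.24 in NC, at 7.16, 6.99, 6.30 and 6.18 in DM and at 6.35, 6.56, 6.44 and 6.21 in DM_AngIV. NC and DM each split into a higher and a lower pair, and the DM_AngIV arrays lay between 6.21 and 6.56. Its difference in DM_AngIV against DM was -0.27 ± 0.21 (SE; limma adjusted p = 0.784), and 0.09 over the 7 arrays. Fbln2 had differences between -0.06 and 0.20. By limma 0 of the 3 genes passed and 0 had an unadjusted p below 0.05.

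The 3 basement membrane genes had positive differences in all 3 comparisons, between 0.07 and 0.29 over all arrays, and 0 passed by limma (only Lama2 had an unadjusted p below 0.05, in DM_AngIV against NC). Over the 7 arrays without atrial signal Nid1 and Lamb1 turned to -0.17 and -0.19 in DM against NC. Lama2 encodes the laminin chain of the muscle basement membrane. It was at 7.50, 7.42, 7.62 and 7.48 in NC, at 7.76, 7.72, 7.56 and 7.45 in DM and at 7.61, 7.89, 7.84 and 7.83 in DM_AngIV. DM_AngIV replicates 2 to 4 were above all other arrays, while replicate 1 was within the NC range. The difference was 0.29 ± 0.11 in DM_AngIV against NC (SE; limma adjusted p = 0.222) and 0.34 over the 7 arrays. Nid1 encodes nidogen 1, which links laminin to collagen IV. It was at 7.44, 7.44, 7.42 and 7.41 in NC, at 7.88, 7.47, 7.25 and 7.42 in DM and at 7.79, 7.57, 7.50 and 7.52 in DM_AngIV. The NC arrays lay between 7.41 and 7.44 and below every DM_AngIV array, while DM spanned both, with a difference of 0.17 ± 0.13 (SE; limma adjusted p = 0.587). Lamb1, a laminin beta chain, had a difference of 0.19 in DM_AngIV against NC.

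Timp3 was the only one of the 5 measured proteases and inhibitors that passed in any comparison. Timp1 and Mmp14, a membrane-bound metalloproteinase that activates pro-MMP2, were below background on every array. Timp2 had means of 7.78, 7.91 and 7.83 in NC, DM and DM_AngIV, and the gelatinase Mmp2 had 7.50, 7.51 and 7.34. Their differences from NC in DM_AngIV were 0.05 (95% interval -0.32 to 0.42) and -0.16 (95% interval -0.47 to 0.16), and on the 7 arrays without atrial signal 0.31 and 0.067. For Timp3 that interval was 0.66 to 1.51.

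Of the TGF-beta ligands, Tgfb2 had its highest mean in DM, with 5.09 ± 0.18 against 4.65 ± 0.33 in NC and 4.62 ± 0.07 in DM_AngIV (SD, n = 4). It was at 4.97, 4.54, 4.85 and 4.24 in NC and at 4.88, 5.32, 5.07 and 5.08 in DM. In DM_AngIV it was at 4.64, 4.55, 4.72 and 4.59. All DM_AngIV arrays were below all DM arrays, and DM replicate 1 was the only DM array inside the NC range. The difference was 0.44 ± 0.15 in DM against NC (SE; limma adjusted p = 0.373) and -0.46 ± 0.15 in DM_AngIV against DM (limma adjusted p = 0.585), and neither passed. Tgfb2 was above background on 1 of 4 NC arrays, 3 of 4 DM arrays and no DM_AngIV array, so the size of these differences is uncertain. For the difference from DM, which did not pass, the signals give only a bound of at least 1.09-fold. In DM_AngIV against NC it was -0.03, within the spread of NC. The difference from DM was -0.45 on the 7 arrays. Tgfb1 was at 6.53, 5.92, 6.48 and 6.41 in NC, at 6.58, 6.56, 6.29 and 6.46 in DM and at 6.37, 6.40, 6.54 and 6.28 in DM_AngIV. Apart from the low NC replicate 2, its 3 groups covered the same range, and its differences lay between -0.07 and 0.13. Tgfb3 had differences between -0.01 and 0.04.

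**Figure D3:**
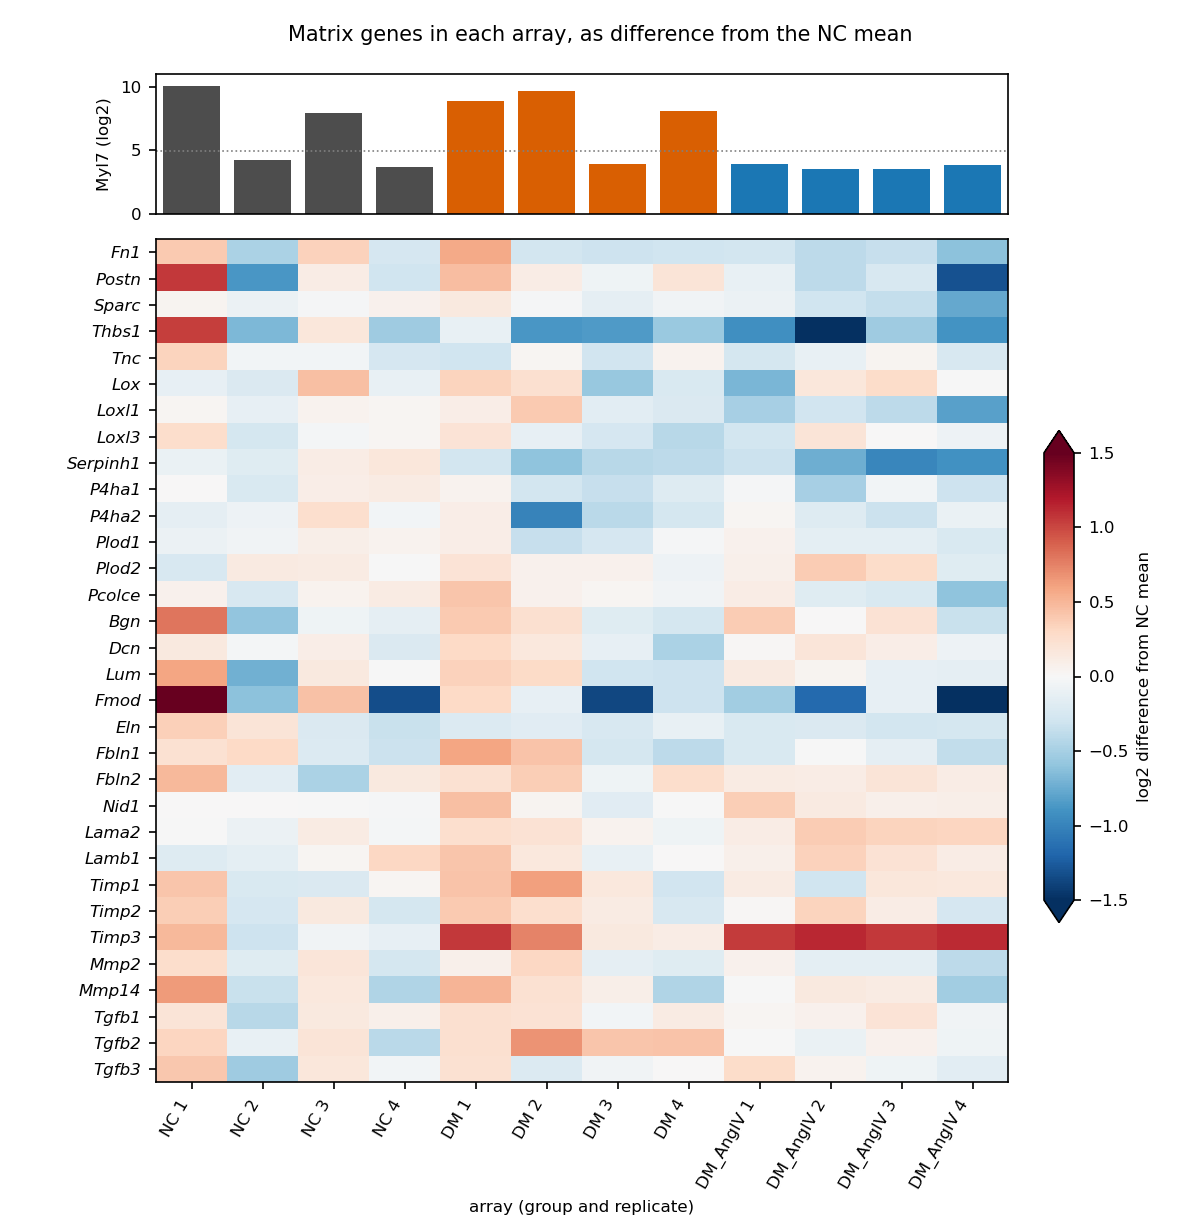
Upper panel, Myl7 (log2) on each of the 12 arrays, with the background of 4.96 as a dotted line. Lower panel, each of the 32 matrix genes (rows) on each array (columns) as the log2 difference from its NC mean, with colour ending at 1.5 either way. Of the 32 genes, 25 are above their NC mean in NC replicate 1, 28 in DM replicate 1 and 6 in DM_AngIV replicate 4, and Timp3 is red on all 4 DM_AngIV arrays.

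The spread among arrays was uneven. The highest of the 12 arrays was NC replicate 1 for 11 of the 32 genes and DM replicate 1 for 10, where they were the highest array for 8.06% and 8.16% of all genes. DM_AngIV replicate 4 was the lowest array for 8 of the 32, and for 8.25% of all genes. The median SD within groups was 0.23 for the matrix genes and 0.19 for all genes, and 25 of the 32 exceeded the latter. The mean of 11 fibroblast markers was 6.91 and 7.14 on NC replicate 1 and DM replicate 1 and 6.61 on DM_AngIV replicate 4. It was above the value of NC replicate 1 on DM replicate 2 (7.01) and DM_AngIV replicate 2 (6.99). Its lowest array was DM replicate 4, at 6.58. It ranged from 6.66 to 6.91 in NC, from 6.58 to 7.14 in DM and from 6.61 to 6.99 in DM_AngIV. None of those 11 markers passed in any comparison by limma, and their part in the matrix values was not tested. An unadjusted p below 0.05 was found for 1 in DM against NC, 2 in DM_AngIV against DM and 3 in DM_AngIV against NC. For all genes the shares were 8.95%, 7.48% and 14.6%, in the same order. The mean of 10 smooth muscle and pericyte markers was 7.22 on NC replicate 1 and between 6.07 and 6.79 on the other arrays. All 11 macrophage and monocyte markers had positive differences in DM and in DM_AngIV against NC, where 49.8% and 48.5% of all genes had one. Their medians were 0.33 and 0.24, and none passed by limma (3 and 2 had an unadjusted p below 0.05, beside 8.95% and 14.6% of all genes). The rise was not on every array. Their mean was 5.41 to 5.56 in NC, 5.39 to 6.33 in DM and 5.47 to 5.98 in DM_AngIV, with DM replicate 4 below every NC array. Whether these markers bear on Timp3 or Serpinh1 was not tested. The mean of 9 epicardial markers was between 3.40 and 3.88 on every array, and none of them was above background in mean. In tissue RNA, fewer cells of a type and less RNA per cell cannot be told apart.

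**Figure D4:**
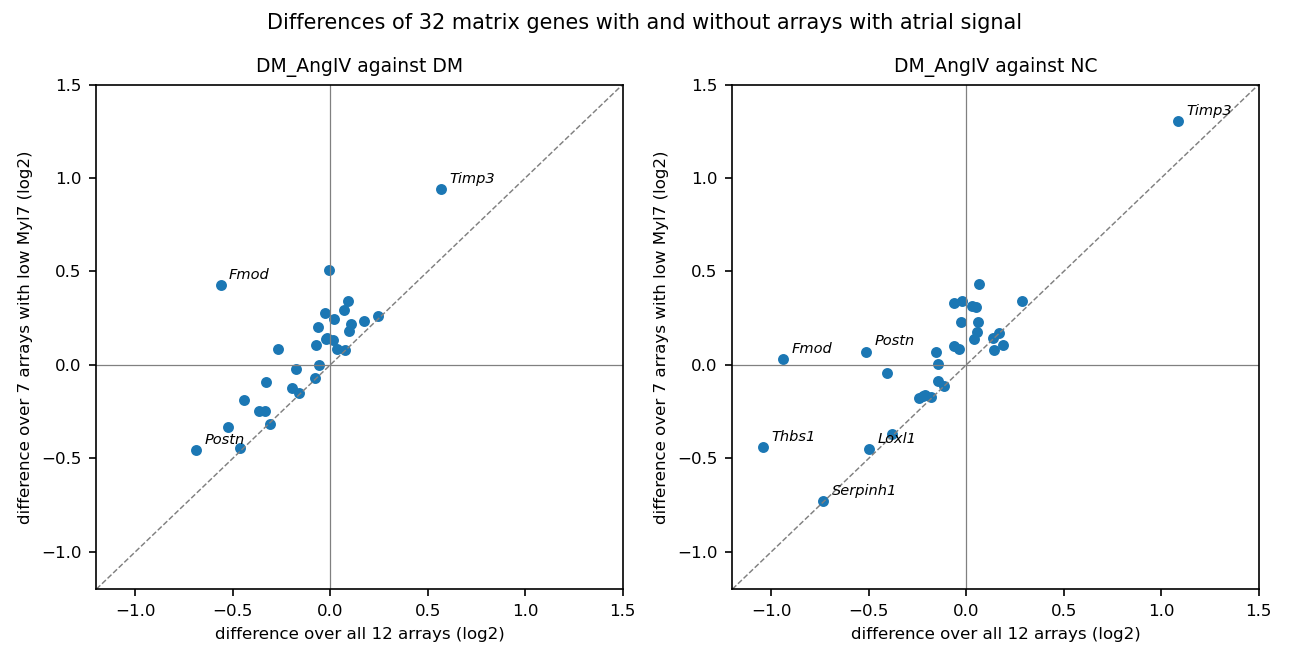
Difference of group means of the 32 matrix genes over all 12 arrays (log2, x axis) against the same difference over the 7 arrays with Myl7 below background (log2, y axis), for DM_AngIV against DM (left) and against NC (right). The dashed line marks equality. Timp3 (1.09 and 1.30) and Serpinh1 (-0.73 in both) keep their place against NC, while Postn goes from -0.51 to 0.07. Fmod, above background on 1 of the 12 arrays, and Thbs1, on 1 of the 4 DM_AngIV arrays, have points of uncertain size.

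Between all arrays and the arrays without atrial signal, 23 of the 32 differences kept their sign in DM_AngIV against NC, 23 in DM_AngIV against DM and 25 in DM against NC. Of the genes above background on every array, Postn went from -0.51 to 0.07 in DM_AngIV against NC, Bgn from 0.07 to 0.43, Lum from -0.02 to 0.34 and Tgfb3 from 0.03 to 0.32. Mmp2 turned from -0.16 to 0.067. In DM against NC, Fn1 turned from -0.08 to 0.05 and Tgfb3 from -0.01 to 0.23. In DM_AngIV against DM, P4ha1 turned from -0.02 to 0.14 and Lum from -0.03 to 0.28. Fbln2 was above background on all arrays but NC replicate 3. It turned from 0.20 to -0.06 in DM against NC and from -0.06 to 0.20 in DM_AngIV against DM. Lox and Mmp14, below background throughout, also turned in DM_AngIV against NC, and Lox in DM_AngIV against DM. In DM_AngIV against NC, Sparc, at -0.38 and -0.37, Loxl1, at -0.50 and -0.45, and Serpinh1 stayed close to their values. In DM_AngIV against DM, Sparc went from -0.36 to -0.25 and Loxl1 from -0.53 to -0.34, while Serpinh1 had -0.31 and -0.32.

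The clients and partners of these genes were read from lists of the same pathways. Of 7 fibrillar collagen chains, which HSP47 helps to fold and of which 3 were above background in mean, 1 passed in DM_AngIV against NC and 0 in the other comparisons (2 and 3 at an unadjusted p below 0.05 in DM against NC and DM_AngIV against DM, limma). That gene was Col3a1, the chain of type III collagen. It was at 7.51, 6.72, 7.18 and 7.33 in NC, at 6.45, 6.62, 6.91 and 6.95 in DM and at 6.63, 5.88, 5.73 and 5.83 in DM_AngIV. DM_AngIV replicate 1 was the highest of its group, as it was for Serpinh1, and every DM_AngIV array was below every NC array. Col3a1 fell 2.25-fold in DM_AngIV against NC, by 1.17 on the log2 scale (SE 0.20; limma adjusted p = 0.0128), and the differences were -0.45 in DM against NC and -0.72 in DM_AngIV against DM, neither past the threshold. Col3a1 kept its call when any single array was left out, and over the 7 arrays without atrial signal it had -1.01 (limma adjusted p = 0.175). In DM_AngIV against NC 6 of the 7 chains, dim ones included, had a negative difference, with a median of -0.28 beside -0.01 for all genes. Of all genes 48.5% had a positive difference there and 1.02% passed. An unadjusted p below 0.05 was found for 4 of the 7 chains and for 14.6% of all genes (limma). In DM against NC and DM_AngIV against DM, 8.95% and 7.48% of all genes had such a p.

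Of 19 genes for TGF-beta receptors, latency proteins and SMADs, 1 rose in DM_AngIV against NC and 0 passed elsewhere (3 at an unadjusted p below 0.05 in each of the other comparisons, limma). In DM_AngIV against NC 0.728% of all genes rose past the threshold. There 4 of the 19 had an unadjusted p below 0.05, beside 14.6% of all genes. For DM against NC and DM_AngIV against DM the shares of all genes were 8.95% and 7.48%. Tgfbr3 encodes betaglycan, the coreceptor that TGF-beta 2 needs for tight binding to its signalling receptors. It was at 6.86, 7.03, 6.88 and 6.89 in NC, at 7.51, 7.28, 7.07 and 7.01 in DM and at 7.26, 7.71, 7.55 and 7.43 in DM_AngIV. Every DM_AngIV array was above every NC array. Tgfbr3 rose by 0.57 ± 0.13 in DM_AngIV against NC (SE; limma adjusted p = 0.0433). That call was lost under 13 of 23 alternatives, with differences between 0.50 and 0.61. It was lost on the 7 arrays without atrial signal (limma adjusted p = 0.205), with the atrial term (limma adjusted p = 0.0569), under quantile normalization (limma adjusted p = 0.0630) and with the replicate block (limma adjusted p = 0.0667). It was also lost without any 1 NC array, DM replicate 2 or 3, or DM_AngIV replicate 2, 3 or 4. The kinase receptor Tgfbr1 was higher on every DM_AngIV array than on every other array, with differences of 0.48 ± 0.12 from DM and 0.39 ± 0.12 from NC (SE; limma adjusted p = 0.501 and 0.151), neither past the threshold. The latency protein Ltbp2 was below background in all groups. Of 9 TGF-beta induced matrix targets 0 passed in any comparison by limma (1 in each at an unadjusted p below 0.05), and Pmepa1, a membrane protein that limits TGF-beta signalling, had -0.42 in DM_AngIV against NC (limma adjusted p = 0.135).

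Of 13 additional collagen-modifying enzymes, 24 further glycoproteins and proteoglycans and 13 further proteases and inhibitors, 0 passed in any of the comparisons by limma. At an unadjusted p below 0.05 there were 2, 0 and 2 of the enzymes, 4, 5 and 5 of the glycoproteins and proteoglycans and 2, 0 and 2 of the proteases and inhibitors, for DM against NC, for DM_AngIV against DM and for DM_AngIV against NC. Of all genes 8.95%, 7.48% and 14.6% had such a p, in the same order. In DM_AngIV against NC, Crtap, a subunit of the prolyl 3-hydroxylase complex, had -0.46 (limma adjusted p = 0.0852) and Pcolce2, a relative of Pcolce, had 0.55 (limma adjusted p = 0.0761). Thbs2, thrombospondin 2, had 0.96 (limma adjusted p = 0.0531), against -1.04 for Thbs1. Timp4, the inhibitor most restricted to heart, had 1.03 ± 0.31 (SE; limma adjusted p = 0.126) and was not called, while Timp3 had 1.09 ± 0.20. The 95% interval of Timp4 ran from 0.37 to 1.70. Ecm2 had -0.59 in DM against NC (limma adjusted p = 0.247). Thbs3, above background on 1 of the 12 arrays, had -0.60 (limma adjusted p = 0.513) and Ppib, a prolyl isomerase of collagen folding, -0.14 (limma adjusted p = 0.776) in DM_AngIV against DM. The stromelysin Mmp3 and the metalloproteinase Mmp11 had 0.68 in DM against NC and -0.28 in DM_AngIV against DM, with levels near background.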

How the data were processed

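Myocardial RNA of 12 mice was hybridised to 12 single-colour Affymetrix arrays. The authors deposited log2 values made by RMA (background correction, quantile normalization and probe summary), per the submitters' processing notes; its version is not given in the sources used here. No counts exist for arrays, so precision is set by 4 arrays per group. Probe sets were named from the platform annotation (19572 of 29129; 19505 genes), with the highest-mean probe set kept per gene. Background was the 95th percentile of 246 reporter control probe sets. A single limma 3.58.1 fit (R 4.3.3) of the 3 group means gave 3 contrasts, with moderated tests and Benjamini-Hochberg adjustment over all genes. The fit was tested on simulated data.

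The matrix genes and gene lists were chosen with earlier results of these data known. Given array by array are, in each role group and comparison, the gene with the smallest unadjusted p, and every matrix gene whose groups did not overlap; the others are given by range. From the pathway lists, the gene with the smallest unadjusted p per comparison and every called gene are named. Alternatives were a threshold of 0.10, leaving out dim genes, fitting only the groups compared, a replicate block, other probe set, centring, normalization and variance settings, the atrial markers as a covariate, leaving out arrays with Myl7 above background, and leaving out each array. The lower bound for Tgfb2 was added after seeing the data. No pairing of the mice by replicate number was seen: over 12 same-numbered pairs the correlation of deviations ran from -0.10 to 0.17. Pairs with different numbers ran from -0.16 to 0.22, so these values cannot exclude a weak pairing. Loxl2 and Fbn1 were not analysed here.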

Additional observations from a re-analysis of the deposited data

Results flagged for a closer look

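Over 96 sets of 4 arrays (32 genes in 3 groups), 5 had 1 array far from the other 3 by Dixon's test, where chance flags about 1 in 20. Fn1, fibronectin, was at 6.43 in DM replicate 1, with the next DM array at 5.59. Loxl1 was at 6.02 in NC replicate 2, below the next at 6.18. Fbln2 was at 5.61 in DM_AngIV replicate 3, above the next at 5.54. Lox was at 3.88 in NC replicate 3 and Timp1 at 3.88 in DM_AngIV replicate 2, both below background.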

How the results depend on the processing

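With 4 mice a group the 95% intervals of the 32 genes had a median half-width of 0.32, so smaller differences were mostly not resolved, and 6 of the 32 had a mean below background. The count of genes called in DM against NC (3) became 17 at an adjusted p of 0.10, 20 without dim genes, 28 with the trend and robust prior, 5 with the atrial covariate and 0 without the arrays with Myl7 above background, and 2 to 30 when 1 array was left out (30 without DM replicate 4). In DM_AngIV against DM it was 0 to 5 when 1 array was left out (5 without DM_AngIV replicate 2). In DM_AngIV against NC (198) it became 509, 569 and 514 under the first 3 settings, 115 with the replicate block, 50 without the arrays with Myl7, and 81 to 302 when 1 array was left out (81 without NC replicate 2, 302 without DM replicate 1). Of the matrix genes, 2 were called there with the replicate block, 3 without dim genes or with the trend and robust prior, 1 without the arrays with Myl7, and 0 to 2 when 1 array was left out (0 without NC replicate 4 or DM_AngIV replicate 2, 3 or 4; 1 without NC replicate 2 or 3).

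For the 15 matrix genes described array by array, Col3a1 and Tgfbr3, directions turned in 34 of 1167 values, in 18 of 51 gene results; the cause was not tested. Over all 32 matrix genes, 25, 23 and 23 kept their sign without the arrays with Myl7 and 29, 19 and 25 with the atrial covariate, for DM against NC, for DM_AngIV against DM and for DM_AngIV against NC. Without the arrays with Myl7, DM against NC gave -0.12 for Loxl1, -0.26 for Fbln1 and -0.17 for Nid1, DM_AngIV against DM gave 0.43 for Fmod, 0.0013 for Eln, 0.086 for Fbln1 and 0.11 for Tgfb1, and DM_AngIV against NC gave 0.071 for Postn, 0.083 for Loxl3, 0.030 for Fmod and 0.23 for Tgfb2. With the atrial covariate, DM_AngIV against DM gave 0.039 for Thbs1, 0.39 for Fmod, 0.051 for Eln and 0.080 for Tgfb1, and DM_AngIV against NC gave 0.090 for Loxl3, 0.011 for Fbln1 and 0.13 for Tgfb2. With 1 array left out, DM against NC spanned -0.82 to 0.12 for Fmod, -0.12 to 0.53 for Postn, -0.093 to 0.11 for Loxl1, -0.0033 to 0.20 for Tgfb1, -0.067 to 0.024 for Sparc, -0.080 to 0.25 for Fbln1 and -0.047 to 0.16 for Nid1, and DM_AngIV against NC spanned -0.12 to 0.051 for Loxl3, -0.16 to 0.080 for Tgfb2 and -0.076 to 0.13 for Tgfb1. None of these differences was called.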
